A study of Mus musculus with 17 samples.

Results

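The right ventricle of the newborn mouse heart was compared between postnatal day 3 (P3) and the day of birth (P0), the first step of its maturation after birth. The comparison took the 3 right ventricle libraries labelled P3 and the 3 labelled P0, 6 of the 17 libraries of the series, and every feature in their tables of noncoding RNA. The mice of both groups were male and of the strain C57Bl/6, with no treatment given in the labels, and total RNA came from the whole right ventricle (RV) as separate biological replicates. Per the labels, P0 lies before the ductus arteriosus closes and P3 is a transition stage. The other 11 libraries are 2 of the RV at P7 and 9 of the left ventricle (LV) at P0, P3 and P7, and they enter below only where the RV result is set beside them.

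Before birth the right ventricle pumps most of its blood through the ductus arteriosus, past the lungs, against nearly the same pressure as the left ventricle. With the first breaths the lung vessels open and the ductus closes, so that the load of the right ventricle drops, while heart muscle cells leave the cell cycle and turn from glucose to fatty acids as fuel. Long noncoding RNAs are transcripts with no long reading frame, and some of them act in the nucleus on the transcription of neighbouring genes or on chromatin.

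Each table listed the same 23940 features, of which 21905 carried an ID of the NONCODE database (NONMMUT) and 2035 an ID of the kind a transcript assembler writes (TCONS). The tables give no gene names, so features are named by these IDs and by the position in the files. They are tables of noncoding RNA, and protein-coding markers of heart muscle or other cell types were not analysed here, so the labelled tissue was not checked against its markers. Values are FPKM, fragments per kilobase of transcript scaled to the depth of the library, and the low values of each library imply its depth. This depth is an estimate from the steps among low values, with the span from start to end taken as the length. In the 6 libraries 57.6% to 60.3% of the low values lay on these steps. The implied depth was 19.5, 13.8 and 16.7 M fragments in the 3 P3 libraries, against 17.8, 16.7 and 18.1 M in the 3 P0 libraries (exact permutation test, two-sided, p = 0.7, where 3 against 3 cannot go below 0.1). In P3 replicate 2, the shallowest library, 49.2% of features were listed at 0, against 34.1% and 38.2% in the other P3 libraries and 37.8% to 43.4% in the P0 libraries. In the P7 libraries of both ventricles the share at 0 was 40.8% to 48.7%, at implied depths of 16.6 to 18.7 M. The cause of these shares was not tested. On the first principal component of the 6 libraries, which held 33.0% of the variance, the P3 libraries lay at 15.1, 51.8 and 19.8 and the P0 libraries at -37.2, -22.8 and -26.7. The age groups were thus apart on this component, and P3 replicate 2 lay farthest out. A mitochondrial feature, NONMMUT071594, also split the libraries across the groups, with 132, 7.93 and 140 FPKM at P3 against 10.7, 11.3 and 198 FPKM at P0. By this split, the higher library set holds P3 replicates 1 and 3 with P0 replicate 3, and the lower set holds P3 replicate 2 with P0 replicates 1 and 2.

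Of the 11079 features that reached 0.1 FPKM in at least 2 of the 17 libraries, 273 (2.46%) differed between P3 and P0 at a limma adjusted p under 0.05. At P3, 159 (1.44%) were higher and 114 (1.03%) lower than at P0. The median log2 change of all tested features was -0.04. Values are relative to the depth of each library, so this median cannot show a change in the total amount of RNA. The change was positive in 46.3% and negative in 53.3% of them. At an unadjusted p under 0.05, 1591 features differed where 554 would be expected with no change at all. RNA was taken from the whole ventricle, so a change in RNA per cell and a change in the number of cells of a type cannot be told apart for any of these features.

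The 159 higher features had a median level of 1.30 FPKM at P3 and 0.307 FPKM at P0, where the medians of all tested features were 0.187 and 0.193 FPKM. They were thus low at birth but not lower than the typical tested feature, with a median log2 change of 1.5 and a range of 0.60 to 3.27. A P3 mean of at least 1 FPKM was reached by 91 of them, and a P0 mean of that size by 51. In 12 of them all 3 P0 libraries were listed at 0, and without these the median log2 change was 1.48. In all 159 the 3 P3 libraries lay above the 3 P0 libraries, an order found in 8.14% of all tested features.

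The 114 lower features mirrored this with a median level of 0.370 FPKM at P3 and 1.75 FPKM at P0. Their median log2 change was -1.53, with sizes of 0.52 to 3.56. In 7 of them all 3 P3 libraries were listed at 0, and without these the median was -1.52. In 113 of the 114 the P3 libraries all lay below the P0 libraries, as in 9.49% of all tested features. The exception was NONMMUT063537 on chromosome 7, positions 130174737 to 130233186, with 0, 0.109 and 0 FPKM at P3 against 0.507, 0.0905 and 0.624 FPKM at P0 (limma adjusted p = 0.0278). It was picked out after its values were seen. Its call was lost without either P3 replicate 1 or 3 and without either P0 replicate 1 or 3, at limma adjusted p of 0.109, 0.117, 0.127 and 0.142, within 0.00135 to 0.632 over its 19 alternatives.

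**Figure D1:**
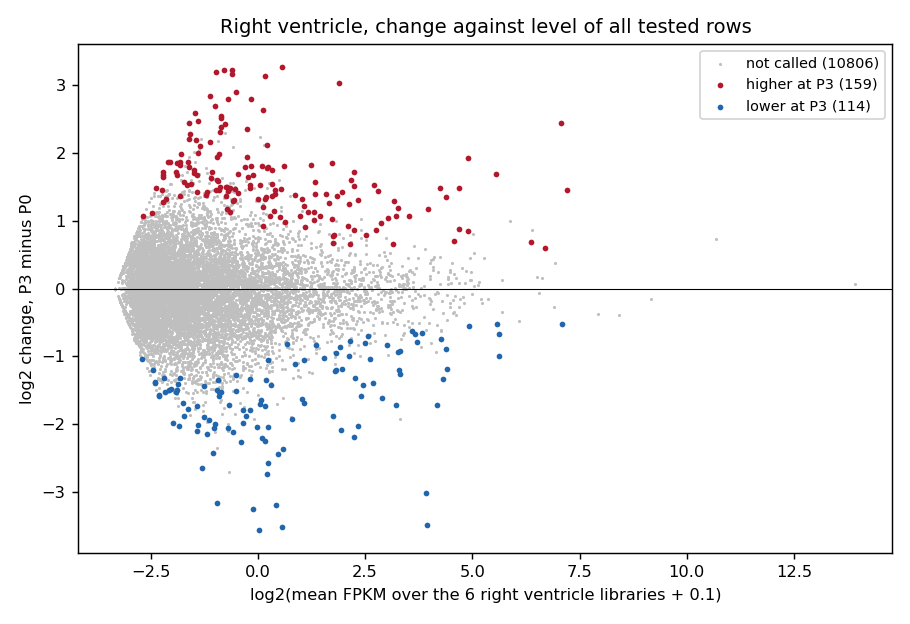
Log2 change of each tested feature in the right ventricle, P3 minus P0 on log2(FPKM + 0.1), against the log2 of its mean FPKM over the 6 libraries; red points were called higher at P3, blue points lower and grey points were not called. Calls reach up to a mean of 148 FPKM, and the 3 features of the mitochondrial chromosome at the far right are grey.

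Assembler-type features made up 15.1% of the features tested and a larger part of the calls. Of the 1672 TCONS features tested, 98 (5.86%) were called, 63 higher and 35 lower. Of the 9407 NONCODE features, 175 (1.86%) were called, 96 higher and 79 lower. Which libraries the TCONS features were assembled from is not given in the sources used here, and its part in this difference was not tested.

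Among the abundant features, the clearest rise was on chromosome 16. TCONS_00024059, at positions 90341906 to 90350117, measured 213, 216 and 222 FPKM in the 3 P3 libraries and 79.3, 71.3 and 88.1 FPKM in the 3 P0 libraries. The groups were far apart and the P3 libraries lay close together, with a log2 change of 1.45 ± 0.09 (SE; limma adjusted p = 1.79e-08). Inside its span lies NONMMUT027626, positions 90348970 to 90349887, at 75.8, 62.2 and 75.2 FPKM at P3 against 24.2, 24.3 and 17.8 FPKM at P0 (log2 change 1.69; limma adjusted p = 5.49e-07). These overlapping features can share reads and are not independent.

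A feature without a position, NONMMUT062940, rose the most among abundant ones. It measured 187, 265 and 229 FPKM at P3 against 49.1, 35.9 and 39.6 FPKM at P0, a log2 change of 2.44 ± 0.16 (SE; limma adjusted p = 2.09e-08). NONMMUT000717, on chromosome 1, positions 40912037 to 40913731, stood at 113, 96.3 and 97.6 FPKM at P3 and at 52.6, 72.0 and 66.6 FPKM at P0 (log2 change 0.69 ± 0.12, SE; limma adjusted p = 0.00196). In both, the lowest P3 library lay above the highest P0 library.

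NONMMUT0047, which also has no position, was among the 4 most abundant features called higher. Its values were 129.7, 119 and 122 FPKM at P3 against 91.4, 97.4 and 60.6 FPKM at P0. The groups did not overlap, but P0 replicate 3 stood low, and the log2 change of 0.60 ± 0.14 (SE) passed the test narrowly (limma adjusted p = 0.0285). Without P0 replicate 3 the change was 0.39 and the call was lost (limma adjusted p = 0.13). It was also lost without P3 replicate 1, 2 or 3, at limma adjusted p of 0.101, 0.0701 and 0.0788, in a range of 0.00331 to 0.413 over 20 alternatives.

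The largest rises began from low levels. On chromosome 9, positions 95464523 to 95468440, NONMMUT070487 measured 7.18, 7.14 and 5.34 FPKM at P3 and 0.548, 0.979 and 0.649 FPKM at P0. All P3 values were several times the highest P0 value, with a log2 change of 3.03 ± 0.23 (SE; limma adjusted p = 1.54e-07). The largest rise of all, a log2 change of 3.27 ± 0.44 (SE), belonged to NONMMUT020955 on chromosome 14, positions 55597685 to 55610438. It measured 2.79, 1.35 and 3.52 FPKM at P3 against 0.0222, 0.452 and 0.153 FPKM at P0 (limma adjusted p = 0.000213). P3 replicate 2 was the lowest of the P3 libraries there and still lay above all P0 libraries.

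Neighbouring features rose together on chromosomes 15 and 19. On chromosome 15, NONMMUT024468 at positions 84977629 to 84978581 measured 0.916, 1.03 and 1.26 FPKM at P3 against 0, 0 and 0.116 FPKM at P0 (log2 change 3.17; limma adjusted p = 0.000213). Its neighbour TCONS_00021476, positions 84979001 to 84986582, measured 0.890, 1.44 and 1.07 FPKM at P3 against 0.0466, 0.0998 and 0.0459 FPKM at P0 (log2 change 2.90; limma adjusted p = 6.67e-06). Both were close to absent at birth and near 1 FPKM 3 days later.
On chromosome 19, TCONS_00030397 at positions 9683167 to 9683812 stood at 1.35, 0.730 and 1.21 FPKM at P3 and at 0, 0.0929 and 0 FPKM at P0 (log2 change 3.22; limma adjusted p = 0.000132). The adjacent TCONS_00030398, positions 9684828 to 9699306, was listed at 0.618, 1.75 and 0.522 FPKM at P3 and at 0 in all 3 P0 libraries (limma adjusted p = 0.000604). P3 replicate 2 was the lowest P3 library for the one and the highest for the other.

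Further features were listed at 0 in all 3 P0 libraries. NONMMUT071935, without a position, measured 0.837, 0.947 and 0.686 FPKM at P3 (limma adjusted p = 0.000252). TCONS_00014637 on chromosome 13, positions 37853750 to 37856660, measured 0.561, 1.30 and 0.298 FPKM at P3 (limma adjusted p = 0.0136). P3 replicate 2 was highest in both, and without it the call of TCONS_00014637 was lost (limma adjusted p = 0.0851, in a range of 0.0034 to 0.135 over 20 alternatives).

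The other features among the 12 largest rises reached about 1 FPKM at P3. TCONS_00053125 on chromosome 7, positions 100130941 to 100131978, measured 1.80, 2.39 and 1.45 FPKM at P3 against 0, 0.132 and 0.363 FPKM at P0 (log2 change 3.14; limma adjusted p = 0.00312). NONMMUT016061 on chromosome 12, positions 114656770 to 114659276, measured 1.95, 1.07 and 1.27 FPKM at P3 against 0.178, 0.254 and 0 FPKM at P0 (log2 change 2.80; limma adjusted p = 0.000179). In neither feature did a library of one age reach into the range of the other, as the choice required.
NONMMUT062937 on chromosome 7, positions 107595247 to 107623350, measured 0.887, 0.651 and 0.762 FPKM at P3 against 0.0736, 0 and 0.0362 FPKM at P0 (log2 change 2.69; limma adjusted p = 4.86e-05). TCONS_00062832, a feature of 256 bases on chromosome 9, positions 108838073 to 108838328, measured 0.902, 1.42 and 0.586 FPKM at P3 against 0, 0 and 0.215 FPKM at P0 (log2 change 2.79; limma adjusted p = 0.0121). The short TCONS_00062832 lost its call without P3 replicate 2, P0 replicate 1 or P0 replicate 2, at limma adjusted p of 0.0687, 0.062 and 0.0589, in a range of 0.00614 to 0.557 over 20 alternatives.

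**Figure D2:**
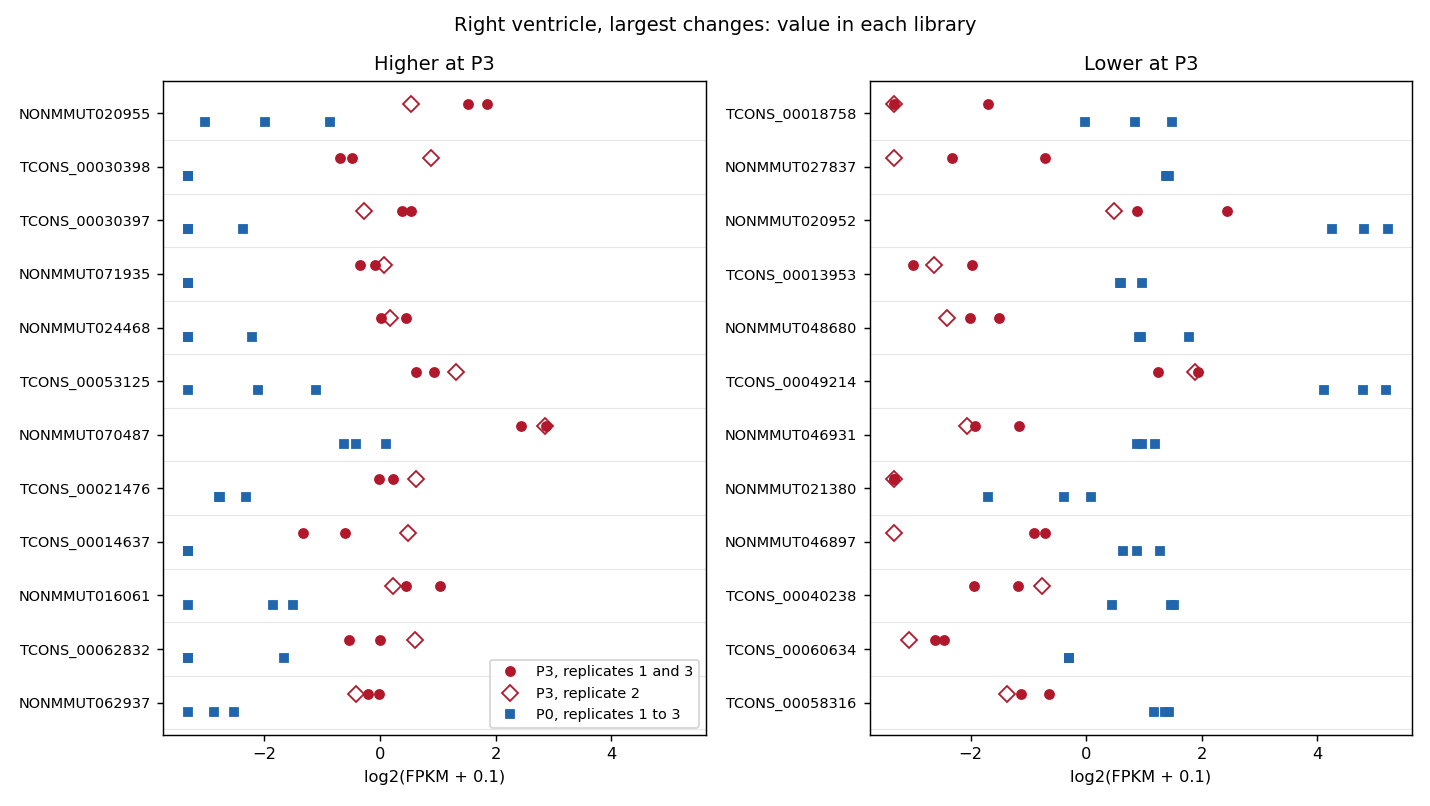
Values of the 12 largest rises (left) and 12 largest falls (right) among called features whose mean over the 17 libraries was above the median of tested features, in each right ventricle library, as log2(FPKM + 0.1), where the lowest symbols stand for a listed value of 0; red symbols are P3, with P3 replicate 2 as an open diamond, and blue squares are P0. Only features whose red symbols all lie on one side of the blue ones were eligible, so this separation is a condition of the choice. Among the rises the open diamond lies on either side of the other red symbols or between them. Among the falls it is mostly the lowest red symbol or level with the lowest, and it is the highest only in TCONS_00040238.

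The steepest falls among abundant features were on chromosomes 14 and 6. NONMMUT020952 on chromosome 14, positions 55590746 to 55591524, measured 5.30, 1.30 and 1.73 FPKM at P3 and 18.99, 27.8 and 37.1 FPKM at P0, a log2 change of -3.49 ± 0.51 (SE; limma adjusted p = 0.000456). TCONS_00049214 on chromosome 6, positions 87387308 to 87387671, measured 2.26, 3.59 and 3.71 FPKM at P3 and 27.6, 17.2 and 36.4 FPKM at P0, a log2 change of -3.02 ± 0.35 (SE; limma adjusted p = 4.86e-05). The P0 libraries varied widely in both features, and none of them came near the P3 libraries.

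Several falls were as large at lower levels. The 12 largest are described whose groups did not overlap and whose mean over all 17 libraries was above the median of tested features. A called feature with a larger fitted fall than 7 of these lay under that median, and it was picked out after its values were seen. NONMMUT028308 on chromosome 17, positions 13812667 to 13820523, was listed at 0 in all 3 P3 libraries and at 0.988, 0.494 and 1.004 FPKM at P0 (limma adjusted p = 2.1e-06). Other features share its position, so reads may be shared. The short TCONS_00018758 on chromosome 14, positions 55613573 to 55613820, had the largest fitted fall, with 0.207, 0 and 0 FPKM at P3 against 2.71, 1.69 and 0.889 FPKM at P0 (log2 change -3.56; limma adjusted p = 0.00011). NONMMUT027837 on chromosome 16, positions 94943501 to 94975045, measured 0.512, 0 and 0.0999 FPKM at P3 against 2.49, 2.52 and 2.61 FPKM at P0 (log2 change -3.52; limma adjusted p = 8.42e-05). P3 replicate 2 was at 0 in both, and in TCONS_00018758 it shared this with P3 replicate 3. TCONS_00013953 on chromosome 12, positions 100140406 to 100143271, measured 0.153, 0.0617 and 0.0255 FPKM at P3 against 1.39, 1.42 and 1.86 FPKM at P0 (log2 change -3.25; limma adjusted p = 5.6e-06). TCONS_00060634 on chromosome 9, positions 79566761 to 79568645, was even within the P0 group, with 0.0817, 0.0192 and 0.0637 FPKM at P3 against 0.714, 0.716 and 0.716 FPKM at P0 (log2 change -2.42; limma adjusted p = 8.42e-05). TCONS_00058316 on chromosome 8, positions 32111786 to 32113248, fell to 0.358, 0.289 and 0.538 FPKM at P3, against 2.60, 2.48 and 2.17 FPKM at P0 (log2 change -2.37; limma adjusted p = 4.97e-05). All 3 kept the P3 libraries well under the P0 libraries.

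TCONS_00040238, a feature of 373 bases on chromosome 4, positions 11181560 to 11181932, measured 0.344, 0.486 and 0.161 FPKM at P3 against 2.78, 2.65 and 1.26 FPKM at P0 (log2 change -2.44; limma adjusted p = 0.00219). A further 4 of the 12 falls shown in the plot have no position in the files. NONMMUT048680 measured 0.251, 0.0888 and 0.147 FPKM at P3 against 3.33, 1.84 and 1.79 FPKM at P0 (log2 change -3.19; limma adjusted p = 0.000106). NONMMUT046931 measured 0.344, 0.139 and 0.162 FPKM at P3 against 2.17, 1.86 and 1.74 FPKM at P0 (log2 change -2.73; limma adjusted p = 2.27e-05). In both, replicate 2 was the lowest of the P3 libraries and all 3 lay far under the P0 range. NONMMUT021380 was listed at 0 in all 3 P3 libraries and at 0.963, 0.206 and 0.663 FPKM at P0 (limma adjusted p = 0.00369).

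NONMMUT046897 depended on single libraries. It was at 0.438, 0 and 0.512 FPKM at P3 and at 1.74, 1.46 and 2.32 FPKM at P0, where P3 replicate 2 alone was listed at 0 (log2 change -2.57; limma adjusted p = 0.028). Without P3 replicate 2 the change was -1.73 and the call was lost (limma adjusted p = 0.144). Leaving out P0 replicate 1, 2 or 3 also ended the call, at limma adjusted p of 0.0767, 0.0571 and 0.101, in a range of 0.00208 to 0.169 over 20 alternatives.

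The 4 most abundant of the lower features fell by modest amounts. NONMMUT064276 on chromosome 7, positions 149761434 to 149764051, measured 25.9, 33.6 and 36.5 FPKM at P3 against 92.4, 46.7 and 58.9 FPKM at P0, with a log2 change of -0.997 ± 0.21 (SE; limma adjusted p = 0.0104). NONMMUT006965 on chromosome 10, positions 94943468 to 94964561, measured 122, 93.7 and 119 FPKM at P3 against 166, 144 and 167 FPKM at P0 (log2 change -0.52 ± 0.12, SE; limma adjusted p = 0.0214). P0 replicate 1 was the highest library for NONMMUT064276, and P3 replicate 2 the lowest for NONMMUT006965.
NONMMUT074380 on chromosome X, positions 148613507 to 148638547, measured 37.3, 40.5 and 35.1 FPKM at P3 against 55.3, 68.5 and 56.4 FPKM at P0 (log2 change -0.67 ± 0.15, SE; limma adjusted p = 0.018). NONMMUT058932 on chromosome 6, positions 127075184 to 127076427, measured 37.0, 40.4 and 38.9 FPKM at P3 against 54.2, 50.4 and 63.1 FPKM at P0 (log2 change -0.52 ± 0.13, SE; limma adjusted p = 0.0305). The groups did not overlap in any of the 4, but each call was lost without at least 2 of the 6 libraries.
NONMMUT064276 lost its call without P3 replicate 1 or P0 replicate 1, at limma adjusted p of 0.0629 and 0.061 (range 0.00273 to 0.22 over 20 alternatives). NONMMUT006965 lost it without P3 replicate 2, P0 replicate 1 or P0 replicate 3, at limma adjusted p of 0.139, 0.0836 and 0.0853 (range 0.00853 to 0.315). For NONMMUT074380 the libraries were P3 replicates 1 and 3 and P0 replicate 2, at limma adjusted p of 0.058, 0.0806 and 0.0929 (range 0.0113 to 0.234). For NONMMUT058932 they were P3 replicates 1, 2 and 3 and P0 replicates 1 and 3, at limma adjusted p of 0.108, 0.0689, 0.0864, 0.0666 and 0.143 (range 0.00388 to 0.311).

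Called features lay close to each other at 19 places where 2 or more stood within 10 kb, with 41 of the 273 features between them. The same share was not counted over all tested features, so these numbers do not show that calls cluster. Of the 23940 listed features, 5055 share their position with another. At 11 places all were higher at P3 and at 7 all were lower. Features at a place often overlap and can share reads, so they count as fewer independent changes. The remaining place, on chromosome 14, held calls of both directions within 55590746 to 55613820. In order along the chromosome these are NONMMUT020952, lower at P3, NONMMUT020955, higher at P3, and then NONMMUT020956 and TCONS_00018758, both lower at P3. NONMMUT020956, positions 55600011 to 55600850, lies inside the span of NONMMUT020955 and measured 1.10, 0.691 and 0.786 FPKM at P3 against 1.60, 4.11 and 3.38 FPKM at P0 (log2 change -1.63; limma adjusted p = 0.0197). It went the opposite way to the longer feature that spans it, but its call was lost without P3 replicate 2, P3 replicate 3, P0 replicate 2 or P0 replicate 3. The limma adjusted p was then 0.0859, 0.0694, 0.106 and 0.0885, in a range of 0.00552 to 0.187 over 20 alternatives. Libraries were strand-specific per the labels, but the tables give no strand, so an antisense partner cannot be told from an isoform here.

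Gene names could be given to few features, because the positions in the files mostly do not match those of the annotation at hand. Start and end were identical to those of an annotated gene or transcript for 114 features, 43 of them tested. By limma, 0 of the 43 were called, with 4 at an unadjusted p under 0.05, and 2.46% of 43 features is about 1 feature. Between such exact matches lay 158 tested features, some of them exact matches themselves. Of the 158, 2 were called, no more than the share over all tested features. Both were higher at P3, and both were picked out after their values were seen. NONMMUT033416 on chromosome 19, positions 3386211 to 3387996, starts 478 bp past the annotated end of Cpt1a on the plus strand. Cpt1a encodes the enzyme that links long-chain fatty acids to carnitine for entry into mitochondria, the step that limits their oxidation. The feature measured 14.9, 16.4 and 14.8 FPKM at P3 and 6.30, 6.58 and 9.07 FPKM at P0, so that the groups stood apart, with a log2 change of 1.08 (limma adjusted p = 0.000132). In the LV its log2 change was 1.21 (limma adjusted p = 5.1e-05). In the higher library set alone, where P0 has 1 library, the RV change was 0.71 and the call was lost (limma adjusted p = 0.107, in a range of 4.04e-05 to 0.107 over 20 alternatives). Whether the feature is a separate transcript or part of the Cpt1a transcript was not tested, and Cpt1a itself was not analysed here.

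NONMMUT025247 on chromosome 16, positions 4284889 to 4286151, lies 1378 bp from Adcy9, which encodes an adenylyl cyclase that makes the second messenger cyclic AMP. It measured 4.08, 4.19 and 3.80 FPKM at P3 and 2.60, 2.23 and 2.62 FPKM at P0, with a log2 change of 0.68 (limma adjusted p = 0.0328). Its call was lost when any 1 of the 6 RV libraries was left out, at limma adjusted p between 0.0665 and 0.125, in a range of 0.00763 to 0.455 over 20 alternatives. Among the features that overlap the nuclear RNAs Malat1 or Neat1, NONMMUT033607 alone passed the level filter. It overlaps Malat1, an abundant RNA of nuclear speckles, and measured 1.32, 0.475 and 1.40 FPKM at P3 and 0.319, 0.444 and 0.957 FPKM at P0 (limma adjusted p = 0.493). These groups overlapped, and the feature was not called. Other features share its position, so reads may be divided between them, and this feature alone does not measure Malat1.

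Of the 8 tested features of the mitochondrial chromosome, 0 were called by limma and 2 had an unadjusted p under 0.05, a number too small to set against the 2.46% of all tested features. They took 59.4%, 66.8% and 62.3% of the summed FPKM at P3 against 58.2%, 64.1% and 59.6% at P0. The main feature at mt-Rnr1, the 12S ribosomal RNA of mitochondria, NONMMUT071574, measured 1696, 2827 and 1591 FPKM at P3 and 761, 1596 and 1382 FPKM at P0 (limma adjusted p = 0.274). P3 replicate 2 held the highest value and P0 replicate 1 the lowest, and the groups overlapped. The most abundant feature of the tables, NONMMUT071578, measured 14457, 17589 and 16040 FPKM at P3 and 14452, 16783 and 14391 FPKM at P0 (limma adjusted p = 0.834).

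Abundant features were called at a larger share than all tested features, and the cause was not tested. Over the 6 libraries 171 features averaged at least 10 FPKM, and 30 of them (17.5%) were called, against 2.46% of all tested features, 14 higher and 16 lower. For 73 of the 171 the 95% interval of the fold between ages lay within 1.5-fold in either direction. At the implied depths, 1 FPKM over 1 kb would equal about 13.8 fragments in P3 replicate 2 and up to 19.5 in P3 replicate 1. A value near 0.1 FPKM would thus rest on very few fragments.

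The left ventricle went through the same 3 days in separate libraries, and most of the RV changes had the same sign there. In the LV, 209 of the 11079 features (1.89%) were called between P3 and P0 by limma, 107 higher (0.966%) and 102 lower (0.921%). Of the 159 features higher in the RV at P3, 155 had a positive LV change, 73 were called higher in the LV, and in 115 all LV P3 libraries lay above all LV P0 libraries, against 6.15% of all tested features. Of the 114 lower in the RV, 111 had a negative LV change, 51 were called lower in the LV, and in 84 the LV P3 libraries all lay below the LV P0 libraries, against 11% of all tested features. The 124 features called in both ventricles in the same direction are 45.4% of the RV calls and 59.3% of the LV calls. Over all tested features 41.3% had a positive and 58.2% a negative LV change, so a shared sign is common by itself. For NONMMUT071594, which split the RV libraries, the LV P3 libraries stood at 162, 25.8 and 157 FPKM and the LV P0 libraries at 23.9, 19.9 and 247 FPKM. The higher library set thus holds the same replicate numbers in the LV as in the RV. The set is unequally spread over the ages in both ventricles, and its part in the shared signs was not tested. Whether both ventricles came from the same animals is not given in the labels.

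Examples show both close and unequal sizes. TCONS_00024059 changed by 1.45 in the RV and 1.48 in the LV on the log2 scale, and NONMMUT070487 by 3.03 in the RV and 3.44 in the LV. NONMMUT062940 changed by 2.44 in the RV and 1.77 in the LV. TCONS_00049214 changed by -3.02 in the RV and -4.89 in the LV, with 0.878, 1.01 and 0.537 FPKM in the LV P3 libraries against 36.1, 17.6 and 28.5 FPKM in the LV P0 libraries. It was lower in all 3 LV than in all 3 RV libraries of P3, but its difference in change between ventricles, 1.88 ± 0.49 (SE), did not pass the limma test (adjusted p = 0.797).

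**Figure D3:**
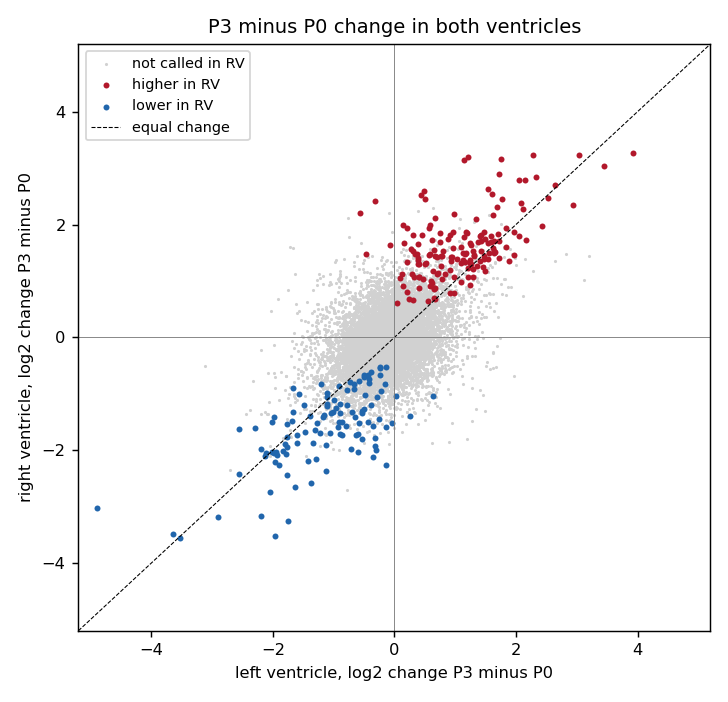
Log2 change, P3 minus P0, in the right ventricle (vertical axis) against the left ventricle (horizontal axis) for every tested feature on log2(FPKM + 0.1); red and blue points were called higher and lower in the right ventricle, and the dashed line marks equal change. Most red points lie in the upper right and most blue points in the lower left, 155 of 159 and 111 of 114.

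No feature was called for a different change in the 2 ventricles, which does not show that the changes were equal. The difference has a larger SE than the RV change, as in TCONS_00024059 with 0.127 against 0.0897. The test of the RV change minus the LV change gave 0 limma calls (0%) among 11079, with 506 features at an unadjusted p under 0.05 and a smallest adjusted p of 0.332. The 506 are 4.57% of all tested features, where 554 would be expected with no difference at all. Of the 273 features called in the RV, 62 (22.7%) had an unadjusted p under 0.05 for this difference. The 273 were selected for their RV change, which is part of the difference, so a larger share among them is built in.
The features with the smallest p were scarce, apart from 1. NONMMUT047593, without a position, measured 0.410, 0.348 and 0.240 FPKM in RV P3 and 0.0895, 0.0479 and 0 FPKM in RV P0. In the LV the order was the opposite, with 0.0851, 0 and 0.178 FPKM at P3 and 0.778, 0.367 and 0.347 FPKM at P0. The difference in log2 change was 3.31 ± 0.63 (SE; limma adjusted p = 0.332), and the RV change alone was not called (limma adjusted p = 0.0658). NONMMUT030193 on chromosome 17 measured 0.118, 0.333 and 0.207 FPKM in RV P3 against 0, 0.0688 and 0.0632 FPKM in RV P0, and NONMMUT060171 on chromosome 7 measured 0.267, 0.215 and 0.290 FPKM in RV P3 against 0.0832, 0.134 and 0.204 FPKM in RV P0. Their differences between ventricles were 2.20 and 2.22 on the log2 scale (limma adjusted p = 0.332 and 0.72). Neither RV change was called, at 1.13 and 0.60 (limma adjusted p = 0.0642 and 0.486). Their LV changes were -1.07 and -1.63, and the second was called (limma adjusted p = 0.108 and 0.0195). With a difference of the opposite sign, NONMMUT036543 on chromosome 2 was listed at 0 in all 3 RV P3 libraries and at 0.202, 0.216 and 0.132 FPKM in RV P0 (limma adjusted p of the difference = 0.332). Its RV change of -1.49 and LV change of 1.28 were not called (limma adjusted p = 0.0509 and 0.133).

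The exception in level was NONMMUT066471 on chromosome 8, positions 88254715 to 88288994. It measured 3.99, 2.37 and 2.78 FPKM in RV P3 and 2.29, 3.73 and 2.96 FPKM in RV P0, where the groups overlapped and the log2 change was 0.02 (95% interval -0.45 to 0.49). In the LV it measured 6.45, 5.52 and 5.36 FPKM at P3 and 1.64, 2.89 and 2.39 FPKM at P0, a log2 change of 1.32 (limma adjusted p = 0.00215). The difference was -1.30 ± 0.32 (SE) and did not pass the limma test across all features (adjusted p = 0.746). At P7 the RV libraries measured 8.62 and 7.06 FPKM and the LV libraries 11.3, 10.5 and 11.8 FPKM, so all P7 libraries lay above all P0 libraries of the same ventricle.

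The 2 RV libraries of P7 place the first 3 days within the first week. They entered the P3 against P0 fit through the shared spread and the level filter, and no test of P7 was made here. TCONS_00024059 stood at 217 and 207 FPKM at P7, level with its P3 values, and NONMMUT062940 at 316 and 231 FPKM. NONMMUT070487 stood at 8.65 and 6.77 FPKM at P7, near or above its P3 values. TCONS_00062832 stood at 5.51 and 4.29 FPKM at P7, above all P3 libraries. NONMMUT0047 was at 85.8 and 94.0 FPKM at P7, within the range of its P0 values.
Among falling features, NONMMUT020952 was at 0 and 0.206 FPKM and TCONS_00049214 at 0 and 0.147 FPKM at P7, under all P3 libraries. NONMMUT064276 was at 12.1 and 14.2 FPKM, again under all P3 libraries. NONMMUT074380 was at 68.9 and 50.2 FPKM at P7, above its P3 values, and NONMMUT006965 was at 94.5 and 114 FPKM, inside its P3 range.

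**Figure D4:**
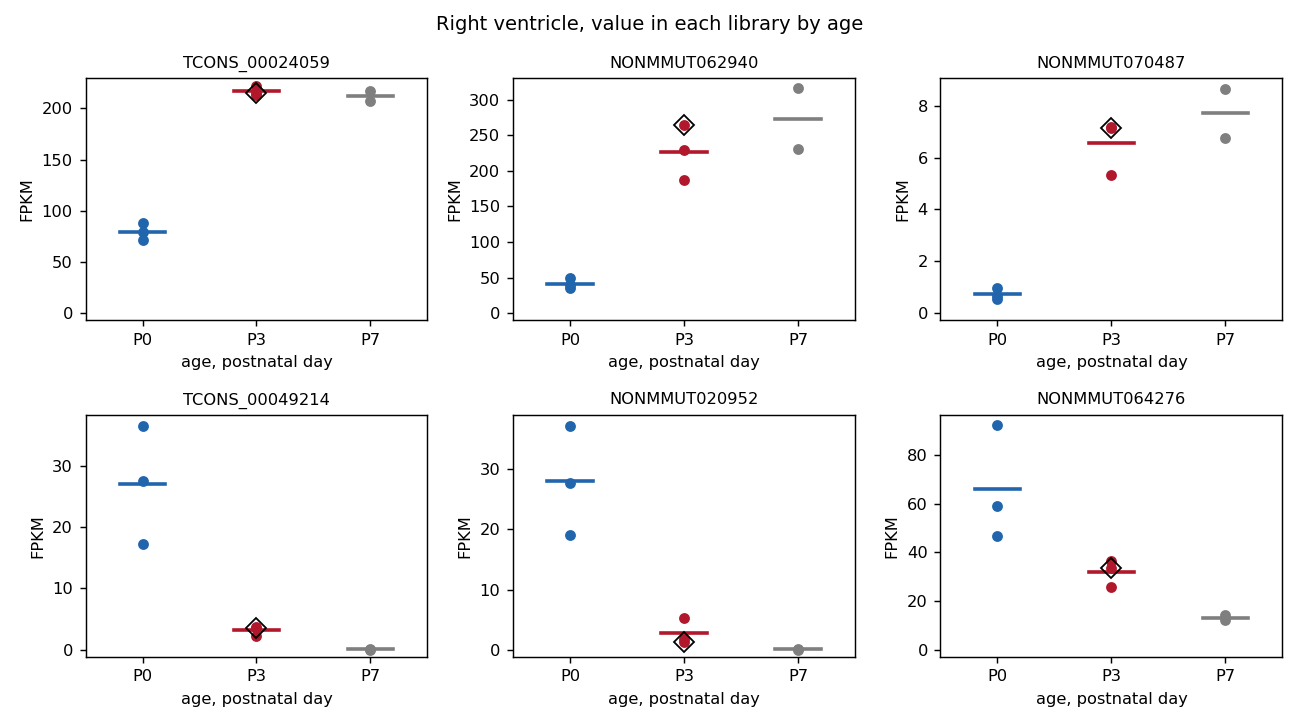
FPKM in each right ventricle library at P0 (blue), P3 (red) and P7 (grey) for 6 features, each on its own linear axis from about 0; bars are group means and the open diamond marks P3 replicate 2. The upper 3 features were higher at P3 than at P0 and stood at similar levels at P7, while the lower 3 were lower at P3 and lower again at P7.

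P3 replicate 2, the library of lowest depth, was also looked at apart. As it is the only P3 library of the lower library set, depth and library set cannot be told apart for it. It was the lowest of the 6 libraries by more than 1 on the log2 scale in 268 features (2.42%), against 27 to 81 features in each of the other 5. Among the 114 lower features it was the lowest P3 library in 51 (44.7%), close to the share over all tested features (44.4%). Among the 159 higher features it was the highest P3 library in 69 (43.4%), above the 25.6% over all tested features. Without this library 195 features were called by limma, 123 higher and 72 lower, and 166 of them were among the 273, which is 60.8% of the original calls. The count of lower features fell by more than 1.5 times without it, and likewise without P0 replicate 3, when 117 were higher and 74 lower.

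The library split seen in the mitochondrial feature was also set against the calls. With the library set as a term in the fit, limma called 163 features higher and 176 lower, and 257 of these 339 were among the 273. Within the lower set alone, with P3 replicate 2 as the only P3 library, 33 were called higher and 39 lower. Within the higher set alone, with P0 replicate 3 as the only P0 library, 28 were called higher and 19 lower. The spread of a lone library had to be borrowed from the other groups of the fit. The cause of the split was not tested.

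**Figure D5:**
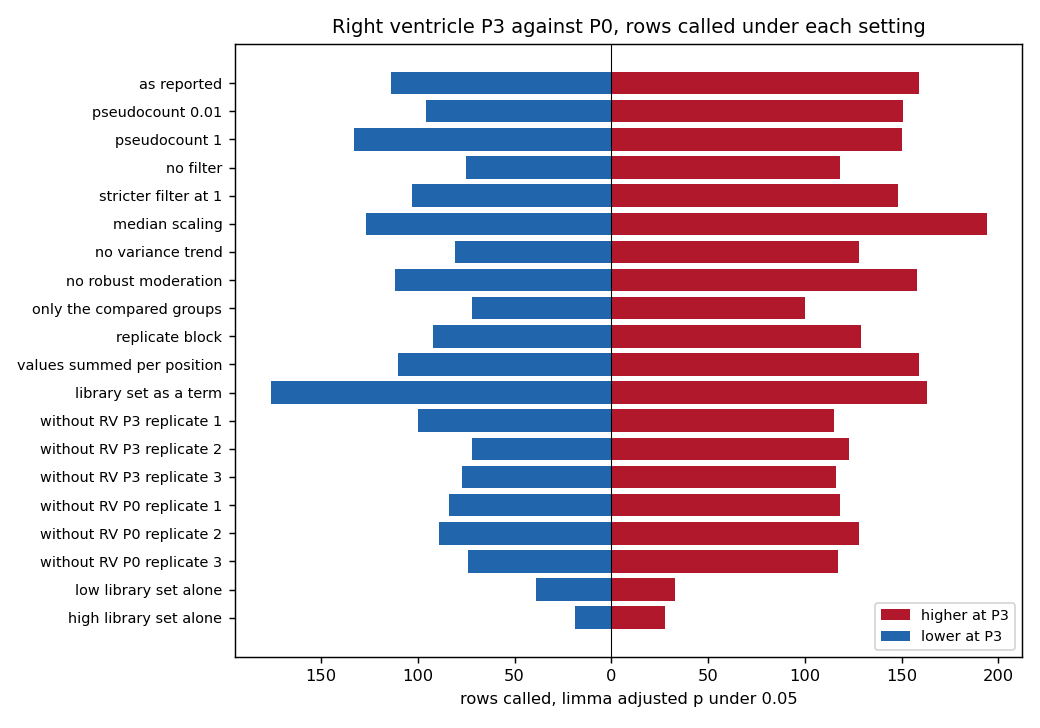
Number of features called higher at P3 (red, to the right) and lower at P3 (blue, to the left) in the right ventricle under each setting of the limma fit, with the reported setting on top. The counts stay between 191 and 339 in all but 3 settings, which are the fit on the compared groups only with 172 and the fits within 1 library set with 72 and 47.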

How the data were processed

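RNA was sequenced from ventricles of newborn mice, strand-specific and paired-end per the labels' protocols. STAR 2.4.0j and mm10 are named in the submitters' processing notes. Which annotation, counter and normalization were used is not given in the sources used here. Values deposited by the authors carry no unit and were read as FPKM from the steps among low values, so the unit is an inference. On 10 chromosomes the positions run past the last annotated gene of mm10, so coordinates are printed as the files give them, probably on an older assembly, and none was converted. Names were given only where start and end equal those of GENCODE release M21 or between such matches at most 1 Mb away.

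The test was limma (version 3.58.1, R 4.3.3) applied to log2(FPKM + 0.1), with 1 mean per ventricle and age over all 17 libraries, variance trend and robust moderation. This scale understates changes of low features. Features at 0.1 FPKM or more in at least 2 libraries were tested, and calls are two-sided at a Benjamini-Hochberg adjusted p under 0.05. The code was tested on simulated data, with 1 common spread for all features and changes added to features above the median level. For RV P3 against P0 it recovered 21 of 100 changes of 1 on the log2 scale and 100 of 100 changes of 2. The difference between ventricles was not simulated. Intervals and SE cover the spread between libraries.

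Named were, per direction, the 12 called places of largest change with non-overlapping groups and a mean above the median, the 4 called features of highest level and the 3 of smallest p for the difference between ventricles, with tested features overlapping listed genes such as Malat1 added. Features outside this rule are said to be so, apart from neighbours or overlapping features at the same place and mitochondrial ones. The comparison, lists and rules were chosen with earlier results of these data known. Alternatives changed the pseudocount, filter, scaling, moderation, libraries, replicate block and library set. The split by library set and the fits within it were chosen after seeing the data.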

Additional observations from a re-analysis of the deposited data

Results flagged for a closer look

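NONMMUT055945 on chromosome 6, positions 22256522 to 22258092, was picked out because its values lay in opposite order in the ventricles, with no overlap between ages in either. It passed the level filter of 0.1 FPKM only through RV P0 replicates 1 and 3, in the group where it is highest. Without either of these libraries it was not tested, so its call rests on the values that let it in. In the RV it was listed at 0 in all 3 P3 libraries and at 0.107, 0.0764 and 0.140 FPKM at P0 (limma adjusted p = 0.0329). In the LV it was listed at 0.0678, 0.0671 and 0.0356 FPKM at P3 and at 0 in all 3 P0 libraries (limma adjusted p = 0.288). The RV change minus the LV change was -1.69 on the log2 scale, with a limma adjusted p of 0.507 for the difference over all features. All values lie near what a few fragments give. The RV call was lost when any 1 of the 3 RV P3 libraries was left out, at limma adjusted p of 0.0921, 0.0945 and 0.0941, in a range of 0.0127 to 0.241 over 15 alternatives.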

How the results depend on the processing

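The reported 273 calls are 159 higher and 114 lower at P3. With no filter, 75 were lower. With only the 6 compared libraries in the fit, 172 were called, 100 higher and 72 lower, at fewer residual degrees of freedom. The library set as a term gave 176 lower. The lower set alone gave 72 calls, 33 higher and 39 lower, with a median change of all features of -0.17, and the higher set alone gave 47 calls, 28 higher and 19 lower. Both have fewer libraries. Leaving out each RV library in turn gave 191 to 217 calls, 115 to 128 higher and 72 to 100 lower, with a median change of -0.09 to 0.02. Those without P3 replicate 2 or P0 replicate 3, at 72 and 74 lower, moved by over 1.5 times. The other settings stayed within 1.5 times, median scaling with 194 higher and 127 lower included. The difference between ventricles gave 0 calls under every setting tried. Same-numbered RV P3 and RV P0 libraries did not vary together, with correlations of -0.0272, -0.0082 and 0.0189. The replicate block gave 221 calls, 129 higher and 92 lower, 208 of them shared. Whether same-numbered RV and LV libraries vary together was not tested, and the test of the difference between ventricles took them as independent. Of 39 named and called features, 7 kept the call under all alternatives, 27 whenever 1 RV library was left out, and 0 changed direction. The causes were not tested.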
